A study of Homo sapiens with 3 samples.

Results

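Distal 9q, taken here as the terminal 11.2 Mb of chromosome 9, runs from position 130000001 to 141213431 in hg19. Every H3K36me3 peak overlapping this stretch in either library was taken, which gave 839 peaks of 117564 in untreated cells and 1125 of 131798 after dihydrotestosterone (DHT). The stretch was picked because its window from 131000001 to 132000000 was densely covered in both libraries and its window from 139000001 to 140000000 rose after DHT. Coverage, and every difference between the libraries, is therefore a description and supports nothing, and "rose" or "fell" refers to the values of these libraries only. All peaks were on chromosome 9, and positions count from 1.

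Peaks came from LNCaP, an established androgen-responsive human prostate cancer cell line derived from a lymph node metastasis. One group is labelled as having no treatment, and the other received 100 nM DHT for 4 h in RPMI described as red-free. DHT is the potent androgen made from testosterone and activates the androgen receptor. All cells were maintained in RPMI with 10% serum, and the untreated group's medium at harvest is not given, so medium and hormone cannot be told apart. Chromatin was precipitated with an Abcam antibody. With 1 ChIP library per condition no test between conditions exists, and printed intervals are 95% counting intervals that do not cover the spread between libraries. An input library made without antibody was not analysed here.

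H3K36me3 is histone H3 trimethylated at lysine 36. In mammals the enzyme SETD2, which travels with elongating RNA polymerase II, deposits it over the bodies of transcribed genes, and it is usually low at promoters and in silent sequence. A gene-rich chromosome arm in an epithelial cell is therefore known to show alternating marked and unmarked stretches. Androgen bound to its receptor changes transcription of many genes within hours in prostate cells.

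This end of chromosome 9 holds many closely packed genes. In the gene order of the RefSeq table for GRCh38.p14, the last protein-coding gene of the arm is CACNA1B, a neuronal calcium channel. Before it, in this order, lie SPTAN1, which encodes a spectrin of the membrane skeleton, SET, a histone chaperone, NUP188, a nuclear pore component, and ABL1, a tyrosine kinase. Farther along come TSC1, an inhibitor of growth signalling through mTOR, and the adjacent genes SURF6, MED22, RPL7A, SURF1, SURF2 and SURF4. Later in the order are BRD3, a reader of acetylated histones, COL5A1, a fibrillar collagen, and the secreted lipocalins LCN1 and PAEP. SNAPC4, which helps transcribe small nuclear RNAs, SEC16A, which organises export sites of the endoplasmic reticulum, and NOTCH1, a receptor that directs cell fate, precede TRAF2, an adaptor of tumour necrosis factor receptors. EHMT1, a histone H3 lysine 9 methyltransferase, comes just before CACNA1B. The table is of another build than the peaks, so only this order was used, no peak was assigned to a gene, and the markers of prostate cells were not checked here.

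Coverage of distal 9q was several times that of the rest of the chromosome in both libraries. Peaks covered 849 kb, or 7.57% of it, in untreated cells and 991 kb, or 8.84%, after DHT. On chromosome 9 before 130000001 the corresponding shares were 1.66% and 1.59%, and over all nuclear chromosomes 2.08% and 2.13%. Distal 9q makes up 0.363% of the sequence spanned and held 0.714% of untreated and 0.854% of DHT peaks. Its peaks were also wide, with a median of 697 bp untreated and 530 bp after DHT, against 374 and 354 bp over all chromosomes. Peaks of at least 2 kb carried 35.5% and 35.1% of the covered length here, against 11.5% and 5.52% on the rest of chromosome 9. Gene-dense ends of other chromosomes, taken over 5 Mb, were covered as much or more and had wider peaks than distal 9q. Over the last 5 Mb of chromosome 9, coverage was 6.44% untreated and 8.49% after DHT and median width 815 and 718.5 bp. Against these last 5 Mb, peaks at the end of chromosome 17 were not wider after DHT. In the first 5 Mb of chromosome 19 coverage was 7.93% untreated and 11.8% after DHT and median width 929 and 1054 bp. For the first 5 Mb of chromosome 16 these values were 8.99% and 12.3%, with 857 and 784 bp, and for the last 5 Mb of chromosome 17 they were 8.91% and 11.5%, with 855 and 708 bp. The deposited score, a value per peak whose scale is not stated, had a median of 88.0 untreated against 81.2 in that whole list, and 86.4 after DHT against 85.7.

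The untreated and DHT maps shared most of their outline along the stretch. Of 111 windows of 100 kb up to the last peak, 109 held a peak of either library. At least 10% was covered in 36 windows of untreated cells, or 32.4%, where 5.59% of all windows in the genome reached that level. After DHT it was 42 windows, or 37.8%, against 5.88% of all, and 34 windows reached it in both. As a description over these 111 windows, which share position and gene content, coverage in the libraries correlated with Pearson r = 0.911 and Spearman rho = 0.927. The most covered 100 genome windows of 100 kb included 8 from distal 9q in untreated cells and 9 after DHT, although distal 9q has 0.359% of all windows.

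**Figure D1:**
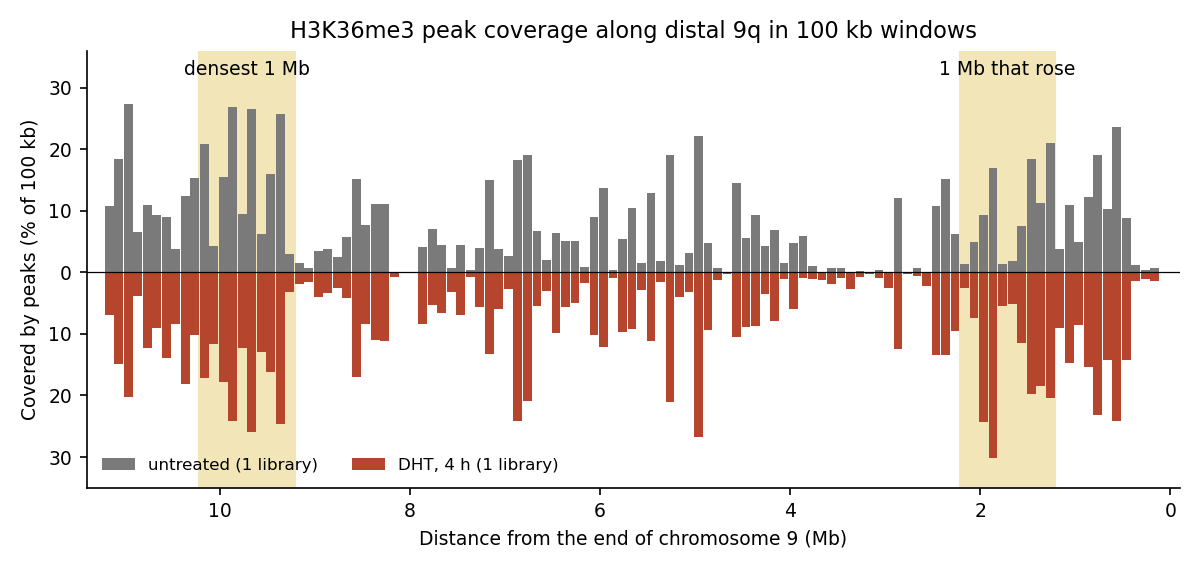
Share of each 100 kb window covered by H3K36me3 peaks (y axis, percent) against distance from the end of chromosome 9 (x axis, Mb), untreated upward in grey and DHT downward in red, 1 library each. Dense and sparse stretches alternate in both, and the shaded windows of 1 Mb are the densest one (15.5% untreated and 16.6% after DHT) and the one that rose (9.41% and 14.5%).

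The 10 most covered windows of 100 kb, ranked by the mean of both libraries, were spread over the whole stretch. The first 3 lay in the densest megabase. The window from 131500001 to 131600000 was covered at 26.6% untreated and 26.0% after DHT, that from 131300001 at 26.8% and 24.2%, and that from 131800001 at 25.8% and 24.6%. DHT coverage was 0.902 to 0.978 times the untreated level in these 3. Outside that megabase, the window from 136200001 had 22.2% and 26.7%, and that from 140600001 had 23.7% and 24.1%. In the window from 130200001 coverage was 27.4% untreated, rank 7 among 30940 windows of the genome, and 20.2% after DHT, rank 169. The window from 139300001 went the other way, from 16.9% at rank 293 to 30.1% at rank 7. Of the 10 windows, 5 were higher and 5 lower after DHT.

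Some stretches held few or no peaks in either library. Without a peak of either library, the longest ran 271 kb from 133052552 to 133323489, the next 123 kb from 137038329 to 137160947, and the third 115 kb from 137459144 to 137573831. No peak was called in the last 141 kb before the chromosome end. Unsequenced gaps of hg19 were not masked, so these runs, and the coverage of windows holding them, may include sequence where no peak could be called. The window of 1 Mb from 137000001 was the least covered full one, at 2.16% untreated and 2.43% after DHT, followed by that from 133000001, at 2.52% and 3.76%. Dense and sparse sequence thus lay side by side: the window from 131900001 was covered at 3.04% and 3.13%, next to one above 24% in both libraries.

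Peak number and covered length over distal 9q were both higher after DHT. There were 1.34 times as many peaks (1.23 to 1.47), and the covered length was 1.17 times as high (1.03 to 1.32). For all chromosomes these ratios were 1.12 and 1.03, and for the rest of chromosome 9 they were 1.10 and 0.957 (0.906 to 1.01). Without the window that rose, the covered length ratio of distal 9q was 1.12 (0.984 to 1.28), so the interval then included 1. Without the densest window it was 1.19 (1.04 to 1.36). The added length was carried mainly towards the telomere. From 130000001 to 138000000 covered length went from 614 to 663 kb, a ratio of 1.08 (0.935 to 1.25), and from 138000001 to the end from 236 to 328 kb, a ratio of 1.39 (1.09 to 1.77). This division was made after the values were seen.

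Taken by megabase, 11 of the 12 windows were more covered after DHT and all 12 held more peaks. The last of them spans only 213431 bp, with 2 untreated and 5 DHT peaks. Of all 3107 windows of the genome, 41.8% were more covered, 47.8% less covered and the rest equal, and 54.4% held more peaks. Peaks were placed by their midpoint in distal 9q and by any overlap over the genome. The exception in covered length was the first, from 130000001 to 131000000, at 12.4% untreated and 11.8% after DHT. The densest window went from 15.5% to 16.6% and was second among 3107 windows of the genome in both libraries. In the 7 windows between 132000001 and 139000000, differences ran from 0.22 points from 132000001 to 1.24 points from 133000001. The window from 139000001 rose by 5.09 points, the third largest rise of all windows, and moved from rank 62 to rank 9. Its distal neighbour from 140000001 went from 9.54% to 12.6%. Median peak width was lower after DHT in 11 of the 12 windows, as in 65.7% of the genome's windows with peaks in both libraries. Only in the window that rose was it higher, at 1146 bp untreated and 1259 bp after DHT.

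**Figure D2:**
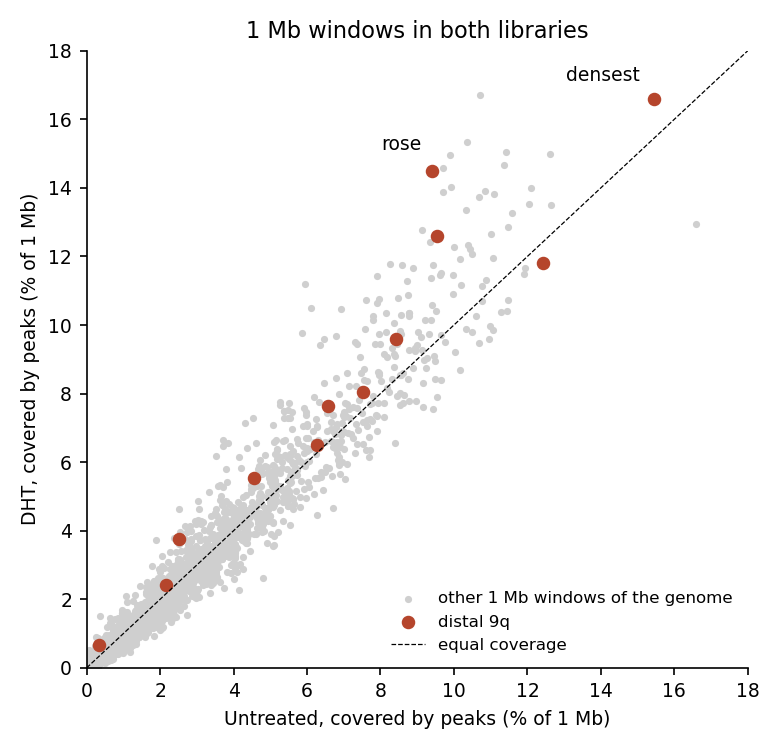
Percent of each 1 Mb window covered by peaks in untreated cells (x axis) and after DHT (y axis), with the 12 windows of distal 9q in red, all other windows of the genome in grey and a dashed line of equal coverage. The densest window lies close to the line at 15.5% and 16.6%, while the one that rose lies above it at 9.41% and 14.5%.

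At 100 kb, 79 of the 111 windows were higher after DHT and 30 lower, by any amount. Over the genome 9999 of 30940 windows, or 32.3%, were higher and 9715, or 31.4%, lower, and 11214 held no peak. On the rest of chromosome 9, 351 were higher and 380 lower. The fold was counted in windows where one library or both covered 10 kb or more. Of these 44 windows, 8 were at least 1.5-fold higher after DHT, or 18.2%, where 14.4% of 2195 such windows in the genome were. At least 1.5-fold lower was 1 window, or 2.27%, against 5.38% in the genome. As the stretch was chosen for a window that rose, nothing is read from these shares. Without that window, 4 of 38 were higher, or 10.5%, and 1 was lower.

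The largest rises lay next to each other in the window that rose. Covered length from 139200001 to 139300000 was 9.31 kb untreated and 24.3 kb after DHT, and from 139300001 to 139400000 it was 16.9 and 30.1 kb. These were the third and sixth largest rises among all windows of the genome. Together they went from 26.2 to 54.4 kb and made up 19.9% of the net gain of 142 kb over distal 9q. The other rises were smaller. Covered length went from 4.21 to 11.6 kb from 131100001, from 11.3 to 18.4 kb from 139800001 and from 6.26 to 13.0 kb from 131600001. The remaining 5 of the 10 largest rises, from 134300001, 130800001, 140700001, 140000001 and 130600001, added 5.01 to 5.89 points each. Of the 10, 2 were in the densest megabase and 3 in the one that rose.

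Falls gathered at the proximal border of the stretch. Of the 10 largest, 7 lay within its first 1.4 Mb and none in its last 3.2 Mb. These lengths were set after the values were seen, and 3 of the 10 largest rises also lay in that first 1.4 Mb. All of the first 4 windows were lower after DHT: 10.8 kb went to 6.94 kb from 130000001, 18.5 to 15.0 kb from 130100001, 27.4 to 20.2 kb from 130200001 and 6.60 to 3.81 kb from 130300001. The window from 130000001 is the one counted as at least 1.5-fold lower. Summed, the 4 went from 63.3 to 45.9 kb, with 69 peaks untreated and 67 after DHT, so the number of peaks hardly differed while their median width was 663 bp untreated and 404 bp after DHT. The windows from 130900001 and 131000001 went from 15.4 to 10.2 kb and from 20.8 to 17.2 kb. Farther out, the window from 137300001 had 5.85 kb in 4 untreated peaks and 0.877 kb in 3 DHT peaks. Just outside the chosen border, the window from 129900001 held 13.4 kb untreated and 12.2 kb after DHT, and that from 129800001 held 7.42 and 11.9 kb.

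**Figure D3:**
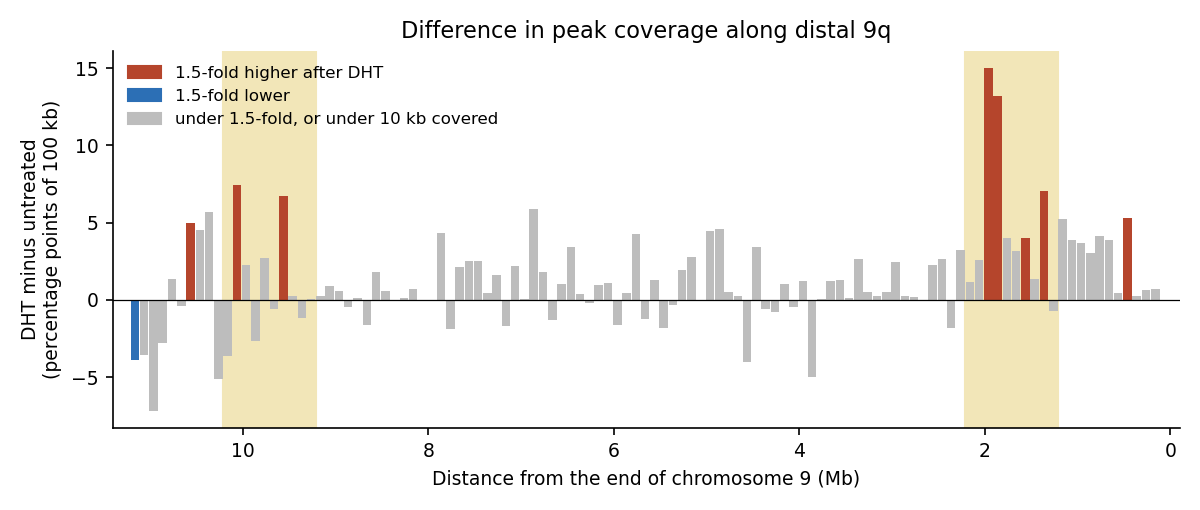
DHT minus untreated coverage of each 100 kb window (y axis, percentage points) against distance from the end of chromosome 9 (x axis, Mb). Red bars mark the 8 windows at least 1.5-fold higher after DHT and the blue bar the 1 at least 1.5-fold lower, among windows with at least 10 kb covered, and the tallest bars are 15.0 and 13.2 points in the shaded window that rose.

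Set side by side, the densest window and the one that rose differed in which peaks held their covered length. In the densest window, 126 untreated and 152 DHT peaks covered 155 and 166 kb, a ratio of 1.07 (0.784 to 1.47). In the window that rose, 65 and 84 peaks covered 94.1 and 145 kb, a ratio of 1.54 (1.02 to 2.32). The ratio between the 2 ratios was 1.43, with a counting interval of 0.855 to 2.41 that included 1, and as the windows were chosen for this difference it was not tested.

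Along the window that rose, the difference was uneven, with 9 of its 10 windows of 100 kb higher and 1 lower after DHT. The first, from 139000001, held 1.43 kb untreated and 2.61 kb after DHT, and the next, from 139100001, held 4.87 and 7.48 kb. After the 2 largest rises came thinly covered sequence, with 1.36 and 5.39 kb from 139400001 and 1.92 and 5.10 kb from 139500001. Coverage then climbed again in both libraries, to 7.47 and 11.5 kb from 139600001 and 18.4 and 19.8 kb from 139700001. In the last, from 139900001, it was 21.1 kb in 15 untreated peaks and 20.4 kb in 8 DHT peaks, so nearly the same length was held by fewer, wider peaks. As ratios, the windows most covered in untreated cells, from 139700001 and 139900001, differed least.

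In the densest window 6 windows of 100 kb were higher and 4 lower. The 4 lower ones, from 131000001, 131300001, 131500001 and 131800001, were also the 4 most covered in untreated cells, at 20.8 to 26.8 kb. The remaining 6 held 3.04 to 15.98 kb untreated and 3.13 to 17.8 kb after DHT. From 131400001, for example, 9.55 kb in 13 untreated peaks stood against 12.3 kb in 11 DHT peaks. Peaks were packed more closely there, with a median gap of 3301 bp untreated and 3015 bp after DHT, against 6351 and 4650 bp in the window that rose.

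Distal to the window that rose, all 10 windows of 100 kb from 140000001 to 141000000 were higher after DHT. Their sum was 95.4 kb in 87 untreated peaks and 126 kb in 125 DHT peaks, with median widths of 748 and 739 bp. The most covered, from 140600001, differed little at 23.7 and 24.1 kb, whereas its neighbours went from 10.3 to 14.2 kb from 140500001 and from 8.89 to 14.2 kb from 140700001. Towards the end of the chromosome both libraries thinned out, to 1.15 and 1.43 kb from 140800001 and 0.453 and 1.11 kb from 140900001.

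The megabases from 134000001 to 137000000 showed more peaks without such a change in length. The megabase before them, from 133000001, went from 37 to 67 peaks and from 25.2 to 37.6 kb. From 134000001 to 135000000, 108 untreated and 153 DHT peaks covered 84.3 and 95.9 kb, and their median width was 529 bp untreated and 385 bp after DHT. From 135000001, 104 and 133 peaks covered 75.3 and 80.4 kb, with medians of 510 and 424 bp. From 136000001, 52 and 74 peaks covered 65.8 and 76.4 kb, and these were wider, with medians of 1006 and 838 bp. The most covered windows of these 3 Mb held 22.2 and 26.7 kb from 136200001, 19.1 and 21.0 kb from 135900001 and, next to each other, 18.3 and 24.2 kb from 134300001 and 19.02 and 20.84 kb from 134400001.

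Wide peaks held the whole net gain of the window that rose. There, peaks of at least 2 kb numbered 15 untreated and 30 after DHT, and their length went from 45.6 to 101 kb, 2.20 times as much. Narrower peaks covered 48.5 kb untreated and 44.5 kb after DHT. Peaks of at least 4 kb went from 2 to 8 and from 10.3 to 39.5 kb. In the densest window the wide peaks stayed level, with 21 covering 68.8 kb and 23 covering 68.4 kb. Its narrower peaks went from 85.8 to 97.6 kb. Leaving the window that rose out of distal 9q, 81 wide peaks with 256 kb stood against 78 with 248 kb. The net surplus of wide peaks after DHT thus lay in the window that rose. Elsewhere their number went both ways, for example from 9 to 14 in the megabase from 140000001 and from 10 to 7 in that from 136000001. Some wide DHT peaks of the window that rose lay over several narrower untreated ones, as that of 5580 bp from 139972952 did over 3. On chromosome 9 before 130000001, wide peaks numbered 85 untreated and 41 after DHT and covered 249 and 114 kb. Over all chromosomes they numbered 3036 and 2700. In the 5 Mb ends of chromosomes 19, 16 and 17 they went from 55 to 95, 49 to 83 and 57 to 75, so a rise was not particular to this window.

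**Figure D4:**
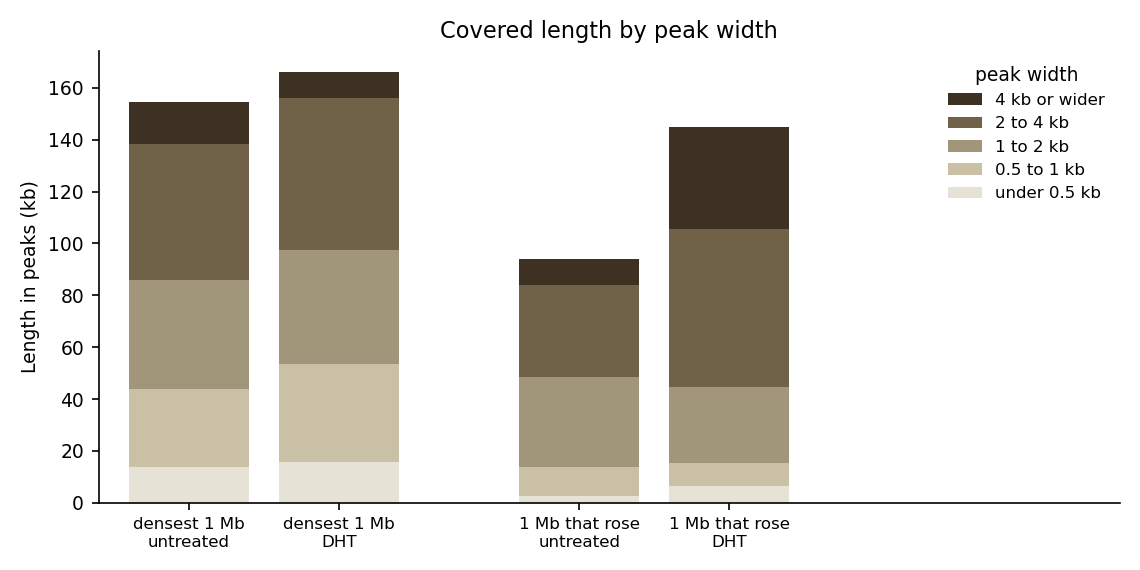
Length in peaks (y axis, kb) in the densest 1 Mb and in the 1 Mb that rose, untreated and after DHT (1 library each), split by the width of the peaks. In the window that rose, peaks of 4 kb or wider went from 10.3 to 39.5 kb, while in the densest window they went from 16.2 to 9.94 kb.

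Overlap between the libraries was also split differently in the 2 windows. The densest window had 106 kb covered in both libraries, which was 49.4% of all sequence covered in either. In the window that rose it was 64.4 kb, or 36.9%, against 39.6% in distal 9q as a whole. The share was 32.5% over all chromosomes and 35.8%, 39.6% and 39.9% in the ends of chromosomes 19, 16 and 17. Sequence covered in DHT cells alone came to 80.6 kb in the window that rose. Of this, 47.0 kb lay in 38 DHT peaks with no untreated counterpart and 33.6 kb at the edges of overlapping peaks. Untreated-only sequence was 24.9 kb in 16 peaks without a counterpart and 4.85 kb at edges. In the window that rose 54.8% of DHT and 75.4% of untreated peaks were overlapped, against 48.5% and 52.3% over all chromosomes. Peaks without a counterpart held 32.4% of DHT and 26.4% of untreated length there, against 42.1% and 33.3% over all chromosomes. In the densest window edges held 14.3 kb of DHT and 24.0 kb of untreated sequence. Over all chromosomes too, edges held less DHT than untreated sequence, 6240 against 10921 kb, so the window that rose had the opposite order. From 138000001 to the end, which includes that window, edges held 60.8 kb of DHT and 27.1 kb of untreated sequence. From 130000001 to 138000000 they held 60.4 and 114 kb.

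Peaks of distal 9q had a counterpart in the other library somewhat more often than peaks in general for untreated cells. A DHT peak overlapped 546 of the 839 untreated peaks, or 65.1% (61.8% to 68.2%), against 52.3% over all chromosomes. Of DHT peaks, 577 of 1125 were overlapped, or 51.3% (48.4% to 54.2%), against 48.5%. Shares in the ends of chromosomes 19, 16 and 17 were no lower, at 67.6%, 69.3% and 69.6% of untreated peaks and 52.6%, 54.8% and 51.9% of DHT peaks. Wider and higher-scoring peaks were overlapped more often. Overlapped untreated peaks had a median width of 879 bp and the others 408 bp, and after DHT the medians were 750 and 393 bp. Among the peaks of distal 9q in the top 25% of their list by score, 88.0% of untreated and 85.7% of DHT peaks were overlapped. The same shares over all chromosomes were 77.0% and 81.1%. In the lowest 25% they were 39.4% and 22.6% in distal 9q, against 34.8% and 26.5% over all chromosomes.

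Peaks of either library were then merged into blocks wherever the next one began within 5 kb, and 97 such blocks reached 10 kb and together spanned 1.87 Mb. Peaks filled 27.6% of them in untreated cells and 30.3% after DHT, against 18.5% and 18.6% of such blocks over the genome. The longest ran 88670 bp from 135137187 to 135225856 and held 14.2 kb in 30 untreated peaks and 15.8 kb in 34 DHT peaks. Next were 60781 bp from 131705661 to 131766441, with 15.3 and 15.0 kb, and 60175 bp from 134301756 to 134361930, with 17.4 and 21.6 kb. DHT length in these 3 was 0.978 to 1.24 times the untreated length. Among the 10 longest the ratio of DHT to untreated length ran from 0.946 to 2.31, with the highest in the block from 139323194 to 139362888, where 8464 bp in 4 untreated peaks stood against 19572 bp in 9 DHT peaks.

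In 57 of the blocks one library or both covered 5 kb or more, and 6 of these were at least 2-fold higher after DHT, or 10.5%, where 8.07% of 2676 such blocks in the genome were. At least 2-fold lower were 2, or 3.51%, against 2.73%. The median ratio over the 57 blocks was 1.02. Of the 6, 4 lay in the window that rose and 2 in the densest one. The 2 lower ones ran from 130219299 to 130249047, with 13560 bp untreated and 6278 bp after DHT, and from 139983559 to 139998670 inside the window that rose.

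In the window that rose, neighbouring blocks behaved unequally. The block from 139269384 to 139289949 had 1 untreated peak of 3206 bp, from 139281197 to 139284402. After DHT a peak of 3130 bp lay almost exactly on it, and 3 more peaks of 2105, 5714 and 3827 bp, with no untreated counterpart, stood on either side. Their scores were 53.4, 74.2 and 71.4, all under the DHT list's median of 85.7. The next block, from 139295642 to 139314413, was covered in both libraries, at 9290 bp untreated and 11228 bp after DHT. From 139424614 to 139438697, 1 untreated peak of 1363 bp faced 4 DHT peaks of 945 to 1486 bp, none of which overlapped it. At the far end of the same window the order was reversed. From 139983559 to 139998670 untreated cells had 10472 bp in 4 peaks, including one of 5351 bp, and DHT cells 2395 bp in 2 peaks. An untreated peak of 4913 bp from 139722589 to 139727501 also had no DHT peak on it.

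In the densest window 13 blocks could be compared, with 6 higher and 7 lower after DHT and a median ratio of 0.978. Only 2 differed by 2-fold or more. From 131105885 to 131120225, 1 untreated peak of 1268 bp stood against 7 DHT peaks covering 7576 bp. From 131653651 to 131673626, 1 untreated peak of 4579 bp stood against 4 DHT peaks covering 9781 bp. The other 11 ran from 0.721 to 1.26 times.

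**Figure D5:**
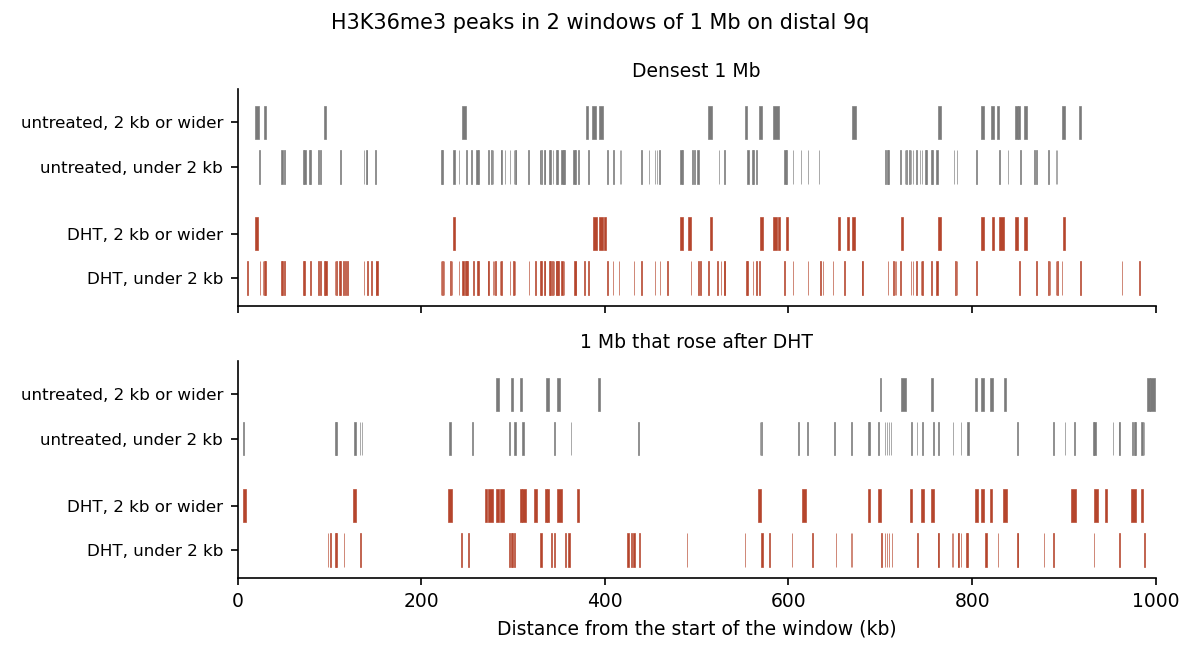
Position of every peak in the densest 1 Mb (top) and in the 1 Mb that rose (bottom), as distance from the start of the window (x axis, kb), with untreated peaks in grey and DHT peaks in red and peaks of 2 kb or wider on rows of their own. Wide peaks number 21 and 23 in the densest window and 15 and 30 in the one that rose, where DHT has more wide peaks than untreated between 200 and 400 kb and also after 900 kb.

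The highest-scoring peaks of distal 9q were found in both libraries. Each of the 10 highest untreated peaks was overlapped by a DHT peak over 54.8% to 100% of its width, and each of the 10 highest DHT peaks by an untreated one over 59.4% to 100%. The highest of each list lay at the same place, from 135252466 to 135254473 in untreated cells with a score of 702 and from 135252479 to 135254449 after DHT with 772. Second in both was the peak from 140136176 to 140138773, scored 655, and its DHT counterpart, scored 748. Scores are the authors' and rank peaks only within a list.

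Not all of the 10 widest peaks of each library were matched. Among the 10 widest untreated peaks of distal 9q, 8 had a DHT counterpart, and among the 10 widest DHT peaks 8 had an untreated one. The widest untreated peak, 7176 bp from 131582848 to 131590023, was covered over 97.9% by 2 DHT peaks. The widest DHT peak, 5830 bp from 130882350 to 130888179, was covered over 56.3% by an untreated peak of 3282 bp. Those without a counterpart were the untreated peaks from 139722589 and 139993320 and the DHT peaks from 139272332 and from 134356872, the last 5059 bp wide. Of all peaks of at least 2 kb in distal 9q, 86.5% untreated and 80.6% DHT were overlapped, against 91.2% and 76.7% over all chromosomes.

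Other gene-dense chromosome ends showed the same direction. Over the final 5 Mb of chromosome 9, counted back from its last peak, the ratio of covered length was 1.32 (1.07 to 1.62). It was 1.49 (1.23 to 1.81) in the first 5 Mb of chromosome 19, 1.36 (1.15 to 1.61) in the first 5 Mb of chromosome 16 and 1.29 (1.08 to 1.54) in the last 5 Mb of chromosome 17, which like the others was picked with earlier results known. These intervals overlap, and no difference between the ends was tested. Length in peaks of at least 2 kb went up 1.41-fold at the end of chromosome 9, against 2.07, 1.94 and 1.41-fold at the others in that order.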

How the data were processed

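For each ChIP library the authors deposited 1 list of peaks in hg19, per the file names, called with MACS, per the peak names. Each peak has a position and a deposited score from 50 to 3100. Depth is unknown: caller version, settings, control and aligner are, like the number of reads, "not given in the sources used here". A mark that forms broad domains can be broken into several short peaks, so width and number depend on calling.

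Peaks overlapping the stretch were analysed with Python 3.11.15, NumPy 2.4.6 and pandas 2.3.3. Covered length was counted in windows of 1 Mb and 100 kb. A window was counted as changed at 1.5-fold where one library or both covered 10 kb. Overlap means at least 1 bp. Ratios of length carry counting intervals from summed squared peak widths, ratios of number Poisson intervals and shares Wilson intervals (SciPy 1.17.1). Members, lists and rules were chosen with earlier results of these data known. Named are the 10 windows with the largest rise, the largest fall and the highest coverage, the longest blocks, and the widest and highest-scoring peaks. Functions were tested on 2000 simulated peaks, and 5 of 5 checks were recovered. Alternatives were higher-scoring peaks, equal covered length, joined peaks, stricter overlap, and other windows and thresholds. Gene bodies, planned only for an annotation of hg19, and gene lists were not analysed here, and no sequence of hg19 was used.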

Additional observations from a re-analysis of the deposited data

How the results depend on the processing

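No paired analysis was possible because each condition has 1 library. The score limit of 100 and the results without a window were chosen after seeing the data. The covered length ratio of distal 9q, 1.17, stayed above 1 under every setting run, from 1.12 without the window that rose to 1.33 joined at 5 kb, and the peak number ratio, 1.34, ranged from 1.19 joined at 5 kb to 1.36. The interval of the former included 1 only without the window that rose. The ratio between the window that rose and the densest window, 1.43, ranged from 1.35 to 1.99, and its interval included 1 in all of them. The ratio within the window that rose, 1.54, ranged from 1.52 to 2.25, and its interval included 1 when peaks were joined at 1 kb or 5 kb. The share of peaks with a counterpart was 65.1% untreated and 51.3% DHT. Joining at 5 kb gave 76.2% and 60.2%, and an overlap of no less than 50% of its width left 55.5% and 47.0%. Joining at 1 kb gave 68.4% of untreated peaks, and the higher-scoring 50% gave 55.8% of DHT peaks. Covered percentages move with the list by construction: the densest window, 15.5% and 16.6%, had 9.92% and 11.1% in the higher-scoring 50%, 7.85% and 8.86% at scores of at least 100 and 30.3% and 33.1% joined at 5 kb, and the window that rose, 9.41% and 14.5%, had 5.31% and 9.27%, 3.50% and 7.88%, and 13.6% and 22.8%. Of windows of 100 kb, 8 were higher and 1 lower, whereas joining at 5 kb counted 28 and 3, a limit of 2-fold 3 and 0, a minimum of 5 kb covered 22 and 3 and one of 20 kb 2 and 0, with 25 and 8 in windows of 50 kb and 3 and 0 in windows of 200 kb. In the higher-scoring 50% and in windows shifted by 50 kb, 2 were lower. The number of windows compared changes with these rules, from 14 to 91.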

Other observations

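Several sparsely covered parts of distal 9q held more peaks after DHT without any wide peak. From 137400001 to 138300000, 9 windows in a row were higher after DHT, with 9 untreated peaks covering 3.03 kb and 33 DHT peaks covering 12.1 kb. None of these peaks overlapped one of the other library. Their median width was 332 bp untreated and 334 bp after DHT, and their median scores were 57.2 and 59.8, near the lowest score of 50 in the lists. Over all chromosomes 52.3% of untreated and 48.5% of DHT peaks were overlapped, and 34.8% and 26.5% in the lowest 25% by score. The full run of higher windows was 11 long, to 138500000, and went from 15.2 to 24.7 kb. Just before it, the window from 137300001 fell from 5.85 to 0.877 kb. From 133600001 to 133800000, 7 untreated peaks covered 5.13 kb and 24 DHT peaks 10.2 kb. The median width of these DHT peaks was 329 bp, and 7 of them overlapped an untreated peak. One of them, 384 bp wide from 133730220 to 133730603, scored 627 and was the fourth highest DHT peak of distal 9q. Its untreated counterpart was 505 bp wide and scored 287. Scores rank peaks only within a list, and in their own lists these stood at percentiles 99.7 and 97.0. These stretches were chosen after their values were seen.

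Sorted by mean coverage of both libraries, the ratio of DHT to untreated length was highest in the thinly covered windows of distal 9q. It was 2.32 in the 28 windows of 100 kb under 2 kb covered, where 23 were higher and 3 lower. These 28 windows held only 14.646 kb untreated and 33.962 kb after DHT. Among them are the 9 windows from 137400001 to 138300000, chosen after their values were seen, with 3.03 and 12.1 kb. The ratio of 2.32 is therefore not independent of that stretch, although most of the length in this class lay outside it. Counts of higher and lower windows in this class over the genome are not given here. The ratio was 1.199 at 2 to 5 kb, 1.31 at 5 to 10 kb, 1.11 at 10 to 20 kb and 1.07 in the 11 windows from 20 kb. Over the whole genome the ratio in the same 5 classes was 1.07, 0.981, 1.01, 1.05 and 1.08.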
